A study of Mus musculus with 5 samples.

Results

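The surroundings of 10 genes of the ventral forebrain were examined for NKX2-1 binding in mouse lung: Lhx6, Lhx8, Dlx1, Dlx2, Dlx5, Dlx6, Gad1, Gad2, Isl1 and Gbx2. Chromatin immunoprecipitation followed by sequencing was carried out on whole lungs taken at postnatal day 10 from mice of wild-type genotype, with 4 antibodies against NKX2-1 (Abcam133737, Millipore07-601, Abcam76013 and Abcam133638), with 1 library each, beside 1 input library of the same tissue. Peaks whose summit, the position of the highest signal, lay inside one of the genes or within 50 kb of it were taken, and peaks that overlapped by at least 1 bp were merged into a region. This gave 11 regions made of peaks from 1, 3 or 4 antibodies, out of 68919 regions in the genome, around 10 of 21627 protein-coding genes. A region with a peak of all 4 antibodies is called shared below. The rule for the genes names their known role in the forebrain and uses no measured value, although they were proposed with earlier results of these data known. No expression was measured, so that their activity in these lungs was not tested.

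NKX2-1 is a homeodomain transcription factor needed in lung, thyroid and ventral forebrain. In the forebrain it specifies the medial ganglionic eminence, the embryonic source of many cortical interneurons and of cholinergic neurons. There it acts upstream of the LIM homeobox genes Lhx6 and Lhx8, while Dlx genes drive the differentiation and migration of the interneurons, and Gad1 and Gad2 encode the enzymes that make the transmitter GABA. In the lung NKX2-1 is confined to epithelium. A whole lung holds many kinds of cell, and these data do not tell in which of them a region was occupied.

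Depth after removal of duplicates was 43031331 to 46547989 tags for the antibody libraries and 10653749 for the input, and the lists held 40877 to 57891 peaks. The protocol pools sonicated chromatin before the immunoprecipitations, and the labels name no separate animals. The libraries may thus share 1 preparation, and no difference between antibodies has a replicate check. The fold enrichment given with each peak is the authors' ratio of the pileup of tags at the summit to the local background. For 21 of the 26 peak values at these genes that background was the commonest value of the list, 3.64 to 3.93 tags, so that their fold is in effect a pileup over a constant.

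Shared regions were scarce near these genes, and the strongest of them stood at the starts of neighbouring genes. Of the 10 genes, 7 had a region of any antibody in their window (70.0%, exact Clopper-Pearson interval 34.8 to 93.3, counting error only), against a background of 82.6% of protein-coding genes, which is near it. With all 4 antibodies the count was 3 of 10 (30.0%, 6.67 to 65.2), against 74.6%. Lhx6, Dlx5 and Dlx6 made up the 3, and Dlx5 and Dlx6 reached theirs through 1 and the same region. The interval treats the genes as independent, which the neighbouring pairs Dlx1 and Dlx2, and Dlx5 and Dlx6, are not. No region was called inside or within 50 kb of Dlx1, Dlx2 or Isl1.

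**Figure D1:**
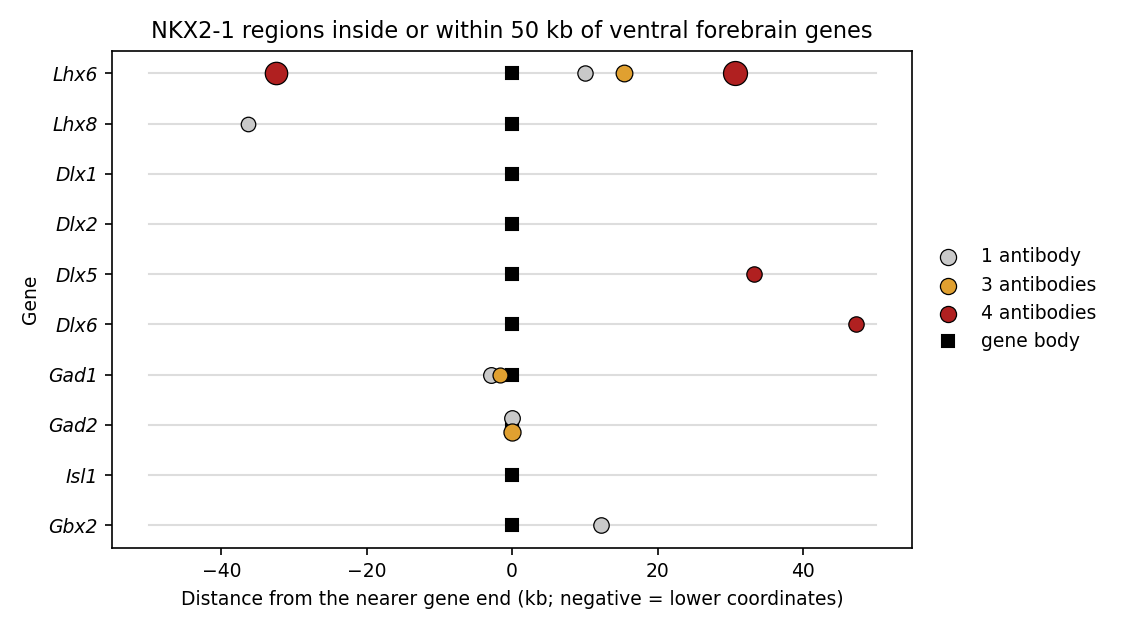
Regions inside or within 50 kb of each gene (rows), at their distance from the nearer gene end in kb. Point colour gives the number of antibodies and point area grows with mean fold; regions inside a gene are drawn beside its black square. Dlx1, Dlx2 and Isl1 carry no point, and the largest points lie over 30 kb to either side of Lhx6.

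The sequences under the strongest signals are those of the promoters beside Lhx6. They are shown with the promoter of Dlx1, which held the same letters but no peak. All are from the RefSeq promoter table for GRCm38.p6 (mm10 coordinates) and are written 5′ to 3′ on the strand of the gene. Capitals mark CTCAAG or its reverse complement CTTGAG. This motif and CAAGTG (reverse complement CACTTG), both of the kind that NKX2-1 binds, were searched on both strands. The Rbm18 promoter spans chr2:36136705-36136954 (minus strand), the 250 bases before the start site. The Dlx1 promoter spans chr2:71529195-71529444 (plus strand), again 250 bases. Ndufa8 and Morn5 start back to back, and the 134 bases between their start sites are chr2:36049339-36049472 (plus strand).
Rbm18: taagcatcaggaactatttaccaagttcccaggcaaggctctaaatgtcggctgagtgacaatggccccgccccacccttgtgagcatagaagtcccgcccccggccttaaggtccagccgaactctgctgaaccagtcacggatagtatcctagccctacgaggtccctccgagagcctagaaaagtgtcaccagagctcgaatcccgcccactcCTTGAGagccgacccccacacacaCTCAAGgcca
Ndufa8-Morn5: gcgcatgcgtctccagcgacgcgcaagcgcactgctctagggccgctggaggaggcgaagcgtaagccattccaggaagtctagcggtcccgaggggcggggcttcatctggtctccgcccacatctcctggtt
Dlx1: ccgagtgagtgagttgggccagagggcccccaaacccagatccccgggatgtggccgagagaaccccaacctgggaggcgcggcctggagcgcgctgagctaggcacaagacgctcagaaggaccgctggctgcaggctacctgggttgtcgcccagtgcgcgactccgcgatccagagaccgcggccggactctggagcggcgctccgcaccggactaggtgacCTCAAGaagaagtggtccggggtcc

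Lhx6, which encodes a LIM homeodomain factor and is a known target of NKX2-1 in forebrain interneurons, had the most regions of the 10 genes. Its window held 4, of which 2 were shared. The stronger (mm10, chromosome 2, 36136546 to 36137087) had a fold of 12.1 with Abcam133737, 14.2 with Millipore07-601, 9.54 with Abcam76013 and 15.1 with Abcam133638, for a mean of 12.7. It lay 30.7 kb from the nearer end of Lhx6, at the promoter of Rbm18, an RNA-binding protein gene, and inside the overlapping start of Mrrf, which encodes the mitochondrial ribosome recycling factor. The 4 summits fell within 10 bp of each other, and the centre of the CTCAAG that begins 10 bases before the Rbm18 start site was 3.5 bp from the region's summit. The CTTGAG that begins 34 bases before the start was 27.5 bp away.

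The second shared region of Lhx6 lay on its other side, 32.5 kb away (chromosome 2, 36049239 to 36049662). Its fold was 9.88 with Abcam133737, 12.1 with Millipore07-601, 6.90 with Abcam76013 and 14.7 with Abcam133638, for a mean of 10.9. It covered the bases between Ndufa8, a gene of respiratory complex I, and Morn5, in which neither motif was found. In both regions Abcam76013 gave the lowest fold and Abcam133638 the highest. Their mean folds were above those of 84.5% and 77.6% of the shared regions of the genome, whose median was 7.14. These are thus strong regions, but each is nearest to another gene than Lhx6.

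The other regions at Lhx6 were weaker. One of 3 antibodies lay inside Rbm18, 15.3 kb from Lhx6 (chromosome 2, 36121095 to 36121470), with a fold of 6.35 with Millipore07-601, 4.26 with Abcam76013 and 4.74 with Abcam133638. The last was given by Millipore07-601 alone, 10.0 kb from Lhx6 and beside the end of Rbm18 (36115930 to 36116091), with a fold of 3.97. None of the 4 regions had Lhx6 as its nearest protein-coding gene, and no peak fell inside Lhx6.

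Lhx8, the LIM homeobox gene of cholinergic neurons of the basal forebrain, had 1 weak region of 1 antibody. Millipore07-601 gave it a fold of 3.38 from a pileup of 15 tags (chromosome 3, 154269895 to 154270056), and the other libraries gave no peak. It lay 36.3 kb from Lhx8 and inside its neighbour Slc44a5. Of the regions called with 1 antibody in the genome, 16.7% had a lower fold. The nearest shared region was 266 kb away, inside Tyw3 and over the promoter of Cryz, with a mean fold of 4.96.

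The 4 Dlx genes, distal-less homeobox genes expressed across the ganglionic eminences, lie as pairs of neighbours on chromosomes 2 and 6. No antibody gave a peak within 50 kb of the pair Dlx1 and Dlx2. The nearest region in the direction of higher coordinates was 52.3 kb from Dlx2, and the nearest in the other direction was 74.8 kb from Dlx1. The latter was shared and stood at the start of Metap1d, a methionine aminopeptidase gene (chromosome 2, 71453120 to 71453698), with folds of 14.6, 17.8, 12.3 and 19.6 in the order of antibodies above. In all, 146 kb around this pair were without a summit.

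The pair Dlx5 and Dlx6 shared a single region (chromosome 6, 6915219 to 6915458), 33.3 kb from Dlx5 and 47.4 kb from Dlx6. All 4 antibodies called it, with folds of 4.32 with Abcam133737, 4.65 with Millipore07-601, 3.25 with Abcam76013 and 3.88 with Abcam133638, from pileups of 15 to 21 tags. The values are low in all 4 libraries, and the mean of 4.03 exceeded that of 2.75% of the shared regions of the genome. The region lay outside genes, and Dlx5 was the nearest protein-coding gene. All 4 peaks of this region passed the authors' q cutoff of 0.05. Their −log10 q was 6.26 with Abcam133737, 7.51 with Millipore07-601, 2.93 with Abcam76013 and 4.80 with Abcam133638. With peaks of a −log10 q of at least 5 or a fold of at least 5 the region was no longer shared, which left Lhx6 as the 1 gene of the 10 with a shared region.

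**Figure D2:**
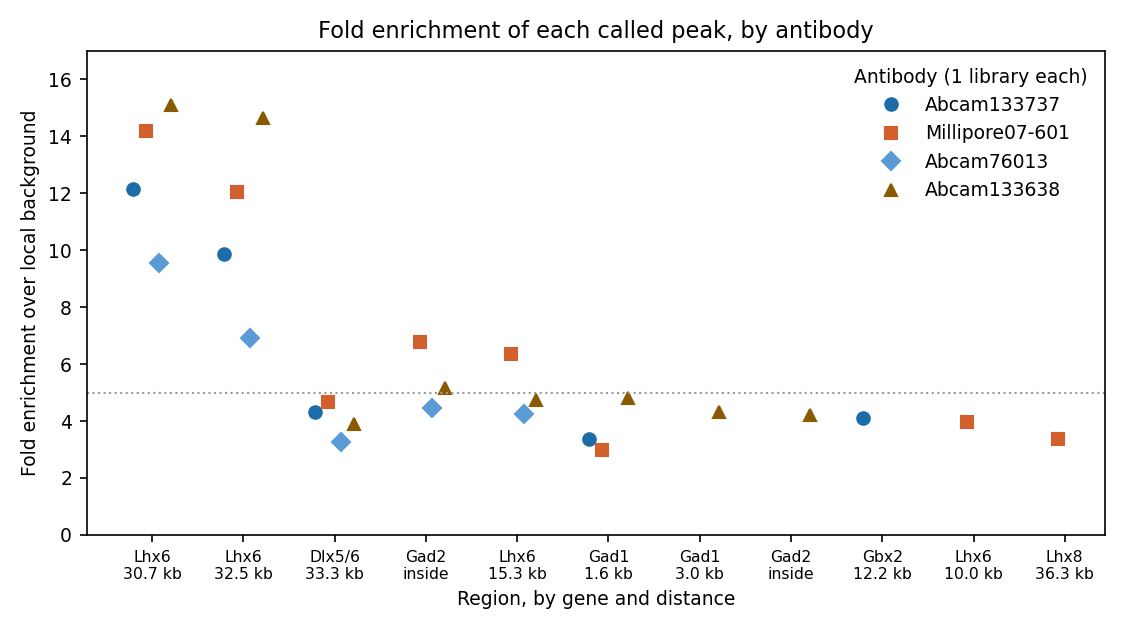
Fold enrichment of every called peak (y axis) at the 11 regions (x axis, named by gene and distance), with a symbol for each antibody library; the dotted line marks a fold of 5. A missing symbol means that the antibody gave no peak. The 2 shared regions beside Lhx6 reach 15.1 and 14.7 with Abcam133638, while the shared region of Dlx5 and Dlx6 stays between 3.25 and 4.65.

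Gad1 and Gad2, the glutamate decarboxylase genes, were the genes to which called regions came closest, and none of these regions was shared. At Gad1 both lay just outside the gene, before its start site and inside the long noncoding RNA gene Gad1os. The nearer, 1.63 kb from the gene (chromosome 2, 70559588 to 70559825), had a fold of 3.35 with Abcam133737, 2.98 with Millipore07-601 and 4.80 with Abcam133638. Its 3 summits were spread over 158 bp, and 7.42% of the genome's regions of 3 antibodies had a lower mean fold. The other, 2.96 kb away (70558277 to 70558442), was given by Abcam133638 alone at 4.31.

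At Gad2 both regions lay inside the gene, the only regions inside any of the 10 genes. The count of genes with a region inside was thus 1 of 10, against 55.5% of protein-coding genes, and with a shared region inside 0 of 10, against 34.5%. The 10 genes are short, with a median length of 8.64 kb against 17.3 kb over all protein-coding genes. These counts were not adjusted for length. One region in Gad2 (chromosome 2, 22669646 to 22669927) was 47.5 kb from the start site. It had a fold of 6.77 with Millipore07-601, 4.47 with Abcam76013 and 5.17 with Abcam133638. Its summits agreed within 25 bp, and 80.6% of the regions of 3 antibodies in the genome had a lower mean fold than its 5.47. The second, 45.8 kb from the start site (22668014 to 22668166), came from Abcam133638 alone with a fold of 4.23. The gene table used here gives no exons, so whether they lie in an intron is not stated. Of the regions nearest to one of the 10 genes, 2 at Gad1, 2 at Gad2 and 1 at Dlx5, that in Gad2 with 3 antibodies had the highest mean fold.

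Isl1, a LIM homeobox gene of striatal and cholinergic neurons, stood in the emptiest stretch. No summit of any library lay within 134 kb on one side or 1135 kb on the other, a gap of 1280 kb. Larger gaps, again counted over regions of any antibody, surrounded 7.66% of all protein-coding genes. No other protein-coding gene lay within 50 kb of Isl1. The region that ended the gap was shared, with folds of 5.77 with Abcam133737, 6.15 with Millipore07-601, 6.34 with Abcam76013 and 5.77 with Abcam133638 (chromosome 13, 116443250 to 116443535). Here Abcam76013 gave the highest value, unlike at Lhx6.

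Gbx2, a homeobox gene known for patterning the midbrain and hindbrain and also active in the ventral forebrain, had 1 region, given by Abcam133737 alone (chromosome 1, 89943286 to 89943440). Its fold was 4.12 from a pileup of 19 tags, and it lay 12.2 kb from Gbx2, between LOC102637806 and Asb18 and nearer to the former. The nearest shared region was 182 kb away, inside Agap1, with folds of 10.3 with Abcam133737, 17.1 with Millipore07-601, 9.70 with Abcam76013 and 9.80 with Abcam133638.

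The longer lists contributed more of these regions, in proportion to their length. Millipore07-601 and Abcam133638 each had a peak in 8 of the 11 regions, and Abcam133737 and Abcam76013 in 5 each. This is 1.38 regions per 10000 peaks of the list for both longer lists, and 1.22 and 1.21 for the shorter. Of the 11 regions, 3 had 4 antibodies, 3 had 3, none had 2 and 5 had 1. The shared part, 27.3% (interval 6.02 to 61.0), stood beside 45.9% in the genome, which the interval includes. Among the 5 regions of 1 antibody, 2 came from Millipore07-601, 2 from Abcam133638 and 1 from Abcam133737. Most values were low, with 7 of 11 regions under a mean fold of 5.

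None of the promoters held a peak. The promoter table listed 8 of the 10 genes, with 10 windows of 300 bases (3 of them for Lhx6), and no peak of any antibody overlapped a window. Over all genes listed, 49.0% had a window that overlapped a peak and 31.6% one that overlapped a shared region. The promoters of the 8 genes had a GC content of 46.0% to 71.2% in the 250 bases before the start site. Of all windows in that range of GC content, 42.7% overlapped a peak and 27.9% a shared region.

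CTCAAG occurred in 1 of the 10 windows, that of Dlx1 shown above, 25 bases before the start site, and CAAGTG in none. In the 250 bases before the start sites of all windows, CTCAAG was present in 13.3% and CAAGTG in 11.6%. Windows that overlapped a shared region held CTCAAG in 14.6% and CAAGTG in 10.0%, and windows without a peak in 13.5% and 12.6%. The letters thus hardly separated windows with and without a shared region, and the match in Dlx1 and the matches in Rbm18 are descriptions of these sequences.

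Measured by the distance to the median summit of a region, the nearest shared region lay 30.7 kb from Lhx6, 33.3 kb from Dlx5, 47.4 kb from Dlx6, 51.0 kb from Gad2, 55.2 kb from Gad1, 74.8 kb from Dlx1, 90.1 kb from Dlx2, 134 kb from Isl1, 182 kb from Gbx2 and 266 kb from Lhx8. The median was 65.0 kb, against 2.00 kb over all protein-coding genes. All 10 lay beyond 30 kb, within which 69.1% of genes had a shared region. That limit was not one of the set windows and lies just under the smallest of the 10 distances. The window of 50 kb fell between neighbours in this order. The region of Dlx6 at 47.4 kb was just inside it, and that of Gad2 at 51.0 kb, near Apbb1ip with a mean fold of 2.00, just outside. Within 10 kb, regions of any antibody stood near 3 of the 10 genes (Lhx6, at the limit of 10.0 kb, Gad1 and Gad2), against 72.6% of protein-coding genes, and shared regions near none, against 58.6%. A count of 0 of 10 allows up to 30.8% by the exact interval. Within 100 kb the counts came closer to the background, with a region of any antibody at 9 of the 10 genes, against 86.9%, and a shared one at 7, against 81.2%.

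**Figure D3:**
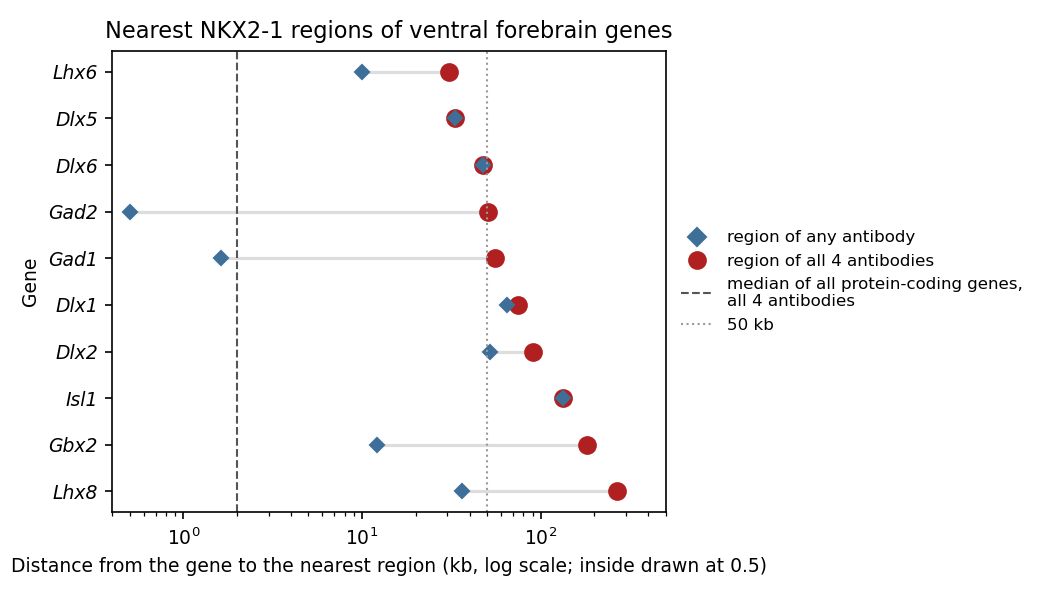
Distance in kb (log axis) from each gene to the nearest region of any antibody (blue diamonds) and of all 4 antibodies (red circles), with the genes ordered by the latter. The red circles run from 30.7 to 266 kb, to the right of the dashed median of 2.00 kb over all protein-coding genes.

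The 10 genes had a median of 2 protein-coding genes in the window, themselves included, against 4 over all genes, and windows with fewer genes less often held a shared region in the genome at large. Isl1 had no other protein-coding gene in its window, and of genes of that kind 51.0% had a shared region. Lhx8, Dlx5, Dlx6, Gad1 and Gad2 had 1 other, and 2 of these 5 had a shared region, against 67.3% of genes with 2 protein-coding genes in the window. Lhx6, Dlx1, Dlx2 and Gbx2 had 3 to 5 genes in the window, themselves included, and 1 of these 4 had a shared region, against 77.7%. Within 500 kb, the median over the 10 genes was 9 shared regions, and over all genes 20. The 10 differed widely in this, from 1 at Isl1, 3 at Dlx5 and Dlx6 and 4 at Lhx8 to 26 at Gad1 and 38 at Lhx6. Windows empty of shared regions were thus found both in sparse stretches, as at Isl1, and in stretches rich in them, as at Gad1.

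Other genes of the forebrain were counted in the same way. Of 32 further genes of the subpallium and its interneurons, 24 had a region of any antibody within 50 kb and 16 (50.0%) a shared one. Over all protein-coding genes these shares were 82.6% and 74.6%. The highest mean folds belonged to genes that also act outside the brain: 43.5 inside Nrp1, a receptor of semaphorins and VEGF, 25.7 inside Shh, the ligand that induces Nkx2-1 in the ventral forebrain, and 24.7 inside Ptch1, its receptor. No peak was found for 8 of the 32 (25.0%, against 17.4% of all protein-coding genes). Among them were Gsx1 and Olig2, regulators of forebrain progenitors. Gsx2, in the same list, had 4 regions, none of them shared. Genes of interneurons themselves were mixed. Shared regions lay inside Satb1, Sox6 and Erbb4, with best mean folds in their windows of 13.0, 10.1 and 7.80, while Maf had none.

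Genes of the hypothalamus, where NKX2-1 also acts, had a shared region in 5 of 10 cases, against 74.6% of all protein-coding genes. A region of any antibody was found for 8, against 82.6%. The strongest belonged to neighbours, at mean folds of 16.6 inside Stat5b near Hcrt, 15.1 inside Efr3b near Pomc and 10.6 beside Psmb7 near Nr5a1. Six6 and Vax1 had no peak. Genes of the pallium, the dorsal forebrain that does not arise from NKX2-1 territory, had a shared region in 7 of 14 cases. The highest were inside Pax6 (35.9) and inside Ppp1r1b near Neurod2 (14.0), and Fezf2, Tbr1, Neurod6 and Slc17a6 had no peak. The 10 genes thus had 3, the 32 further subpallial genes 16 (50.0%) and the 14 pallial genes 7 (50.0%). Over all protein-coding genes the share was 74.6%. The lists were not tested against each other, and their genes are not all separate loci. In the subpallial list Chat and Slc18a3 had the same best mean fold, 4.81. In the list of lung epithelial genes, described below, Sftpa1 and Sftpd had the same best mean fold, 17.6.

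Of 10 other genes of the same homeobox families, 8 had a shared region within 50 kb, near the 74.6% of all protein-coding genes. Lhx2 was counted both here and in the pallial list. The highest were near Gbx1 (32.6, inside Agap3), near Dlx3 (18.2, inside Itga3, an integrin gene) and 4.36 kb from Lhx4 (16.1), and Lhx5 had no peak. Genes of lung epithelium, counted as a check of the tissue, had a shared region within 50 kb in 14 of 14 cases and inside the gene in 13. Their best mean folds ran from 13.0 to 47.2 with a median of 25.5. The highest was 47.2, in a region 27.4 kb from Sftpb. The next were 34.7, inside Lgi3 and 6.02 kb from Sftpc, and 30.4, inside Ppt2 and 27.0 kb from Ager. Sftpb and Sftpc are surfactant protein genes. The lowest of these 14 best folds was above the highest of the 10 forebrain genes, 12.7 at Lhx6. A best fold is the highest among the shared regions of a window. The lung genes had a median of 10 such regions and the forebrain genes 0. Over all protein-coding genes with a shared region, the median best fold was 11.3.

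**Figure D4:**
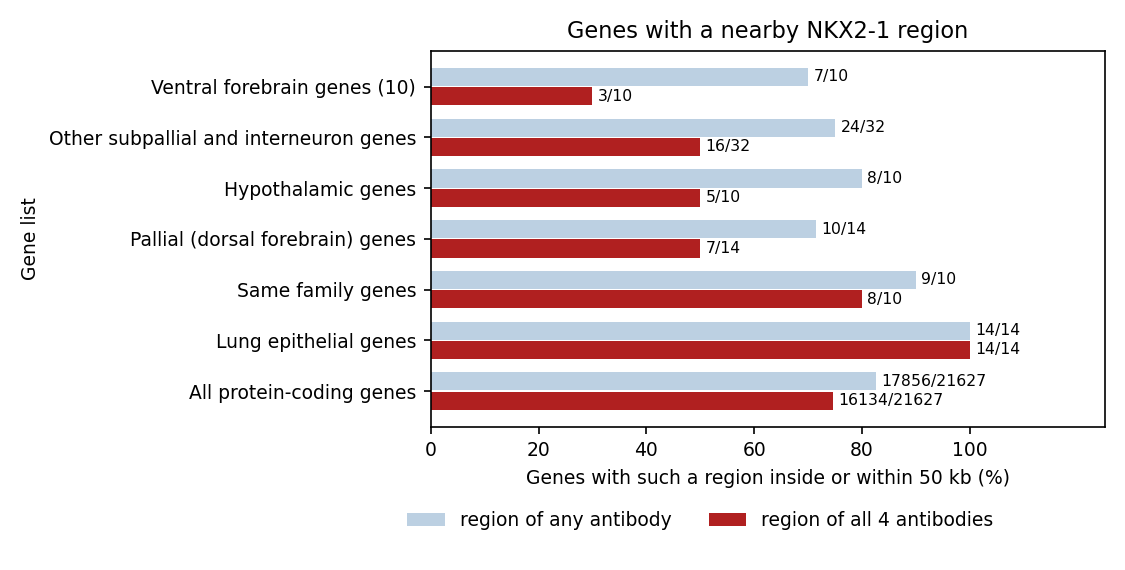
Share of genes in each list (rows, in percent, with counts) that have a region of any antibody (pale bars) or of all 4 antibodies (red bars) inside or within 50 kb. The 10 ventral forebrain genes reach 70.0% and 30.0%, all protein-coding genes 82.6% and 74.6%, and the lung epithelial genes 100% in both.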

How the data were processed

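The build was mm10, and the tools named were Bowtie, SAMtools, MACS2, deepTools, FastQC and Trimmomatic, per the submitters' processing notes. MACS 2.1.2 was run by the authors for each antibody against the same input, per the file headers, with a q cutoff of 0.05 and 1 tag kept per position. The deposited lists give per peak the summit pileup (a signal, in tags), a fold ratio over local background, and −log10 of the p-value and of the q-value.

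Peaks were assigned by summit and merged with Python 3.11.15 and pandas 2.3.3, and a region was counted by antibodies. Genes came from the RefSeq table of GRCm38.p6 (protein-coding, chromosomes 1 to 19 and X), which gives neither strand nor exons. Strand and start sites came from the promoter table. Counting was tested on simulated data. No test was made between antibodies or lists, since each antibody has 1 library. The members and lists were chosen with earlier results of these data known. Named were all 10 genes, their shared or otherwise best regions, the genes that hold them, the top 3 genes of each other list and, where 5 or fewer, those without a peak; some of these are not reported here. Nearest shared regions, Gsx1, Gsx2, Olig2, Satb1, Sox6, Erbb4 and Maf were chosen after their values were seen. Intervals are exact Clopper-Pearson at 95%. Peak sequences outside promoter windows were not used here.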

Additional observations from a re-analysis of the deposited data

How the results depend on the processing

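The 10 genes were few and their regions weak, so counts moved with the settings, which were a window of 10 or 100 kb, −log10 q of at least 5, fold of at least 5, summits within 100 bp, a reciprocal overlap of 50%, the nearest gene only, and each antibody left out. Genes with a region of any antibody were 3 with 10 kb, 2 with a fold of at least 5 and 3 with the nearest gene only, against 7. Genes with a shared region were 0 with 10 kb, 7 with 100 kb, and 1 with −log10 q of at least 5, with a fold of at least 5 and with the nearest gene only, against 3. Regions were 5, 35, 4 and 5 with 10 kb, 100 kb, the fold limit and the nearest gene, against 11. Shared regions were 0, 15 and 1 with 10 kb, 100 kb and the nearest gene, against 3, and 5 without Abcam133737, whose absence completed the regions of 3 antibodies in Gad2 and Rbm18. Their share was 0% with 10 kb, against 27.3%, and their median mean fold 4.03 with the nearest gene and 5.47 without Abcam133737, against 10.9. The other 46 recomputed values of these 6 results stayed within 1.5 times or, for the share, within its interval. With 10 kb no shared region was left to give a median fold. Of 270 values for single genes and the other lists, 220 were equal or stayed within 1.5 times, 17 moved up and 33 down. Many of the 220 were counts of 0 in both settings, as in every setting at Isl1. A count of 0 has no ratio and could not fall, so the 220 are no measure of stability. No paired analysis was possible because each antibody has 1 library and no test was made. With peaks called from 12 tags upward, weaker binding was not detectable at this depth.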
